A study of Mus musculus with 6 samples.

Results

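A set of 10 genes that mark the epicardium and its embryonic source, the proepicardium, were followed in hearts of mouse embryos with and without Arid3b. They were Wt1, Tbx18, Tcf21, Bnc1, Scx, Msln, Upk3b, Upk1b, Sema3d and Aldh1a2, and their probes were found by matching the RefSeq accession of each non-control probe of the array to these symbols. All 10 of 10 were on the array, each with 1 probe, out of 21798 genes tested. Upk1b's probe was printed on 10 spots and the others on 1. RNA came from hearts at embryonic day 9.5, dissected as the heart tube along with the underlying pharyngeal endoderm and mesoderm. There were 3 wild-type pools and 3 Arid3b-null pools, each of 4 embryos and each hybridised to its own one-colour array. Strain, sex, litter and the design of the null allele are not given in the sources used here. Nothing states that the pools came from separate litters, so p-values measure the spread between pools, and in pooled bulk tissue fewer cells of a type and less RNA per cell cannot be told apart.

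The proepicardium is a cluster of mesothelial cells that grows from the septum transversum, beside the venous pole of the heart and next to the liver bud. Its cells cross to the myocardium and spread over it as a single sheet, the epicardium, and some later leave the sheet by an epithelial-to-mesenchymal transition to give fibroblasts and mural cells of the coronary vessels. Most of its markers are not exclusive to it: Wt1 also marks the urogenital ridge, Tcf21 the pharyngeal muscle precursors, Tbx18 the sinus horns and somites, Scx the tendon precursors and Aldh1a2 the venous pole and other embryonic mesoderm. Arid3b is a member of the ARID family of DNA-binding proteins, which prefer AT-rich sequence.

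Levels are given as log2 of the background-subtracted signal minus the 75th percentile of the same array, so they compare a probe between arrays and not with another probe. The 75th percentile itself lay between 9.5 and 10.16 (log2 signal) in the wild-type arrays and between 9.02 and 9.47 in the null arrays, and no spot was saturated. Arid3b served as the check of the labels: its brightest probe read 2.91, 3.40 and 3.69 in wild-type pools 1 to 3 and 1.08, 0.52 and 0.45 in null pools 1 to 3, a change of -2.65 (SE 0.26, limma adjusted p = 0.00194). Of the 21798 genes, 10.5% passed an adjusted p of 0.05 (limma, Benjamini-Hochberg over all genes), 6.64% as higher and 3.81% as lower in the null. That split was 1447 higher against 831 lower, 1104 against 1399 with the arrays scaled by their medians, and 276 against 1445 with no scaling. On each of the 3 slides 1 array of either genotype was used, with matching pool numbers, and the wild-type array always had the same place, so place and genotype cannot be told apart.

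Wt1 and Msln rose in the null pools, no member fell, and 8 of the 10 did not pass the test. That is 2 of 10 beside the 6.64% of all genes that were higher and the 10.5% called in either direction. Bnc1 and Sema3d also lay higher in every null pool than in any wild-type pool but missed the threshold, which makes 4 of 10 members with groups that did not overlap, beside 32.9% of all genes (18.1% with the null higher). Of these 4, only Wt1 had groups that were also apart in the signal before scaling. The difference was positive for 6 members and negative for 4, beside 47.4% of all genes with a lower value in the null. The median was 0.49 beside 0.027 for all genes tested. It was not positive on every slide: the members' medians were 0.59, 0.87 and -0.15 on slides 1 to 3, beside -0.11, 0.091 and 0.13 for all genes. An unadjusted p under 0.05 was reached by 5 of the 10, beside 26.9% of all genes. All 10 probes were well above background on all 6 arrays.

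**Figure D1:**
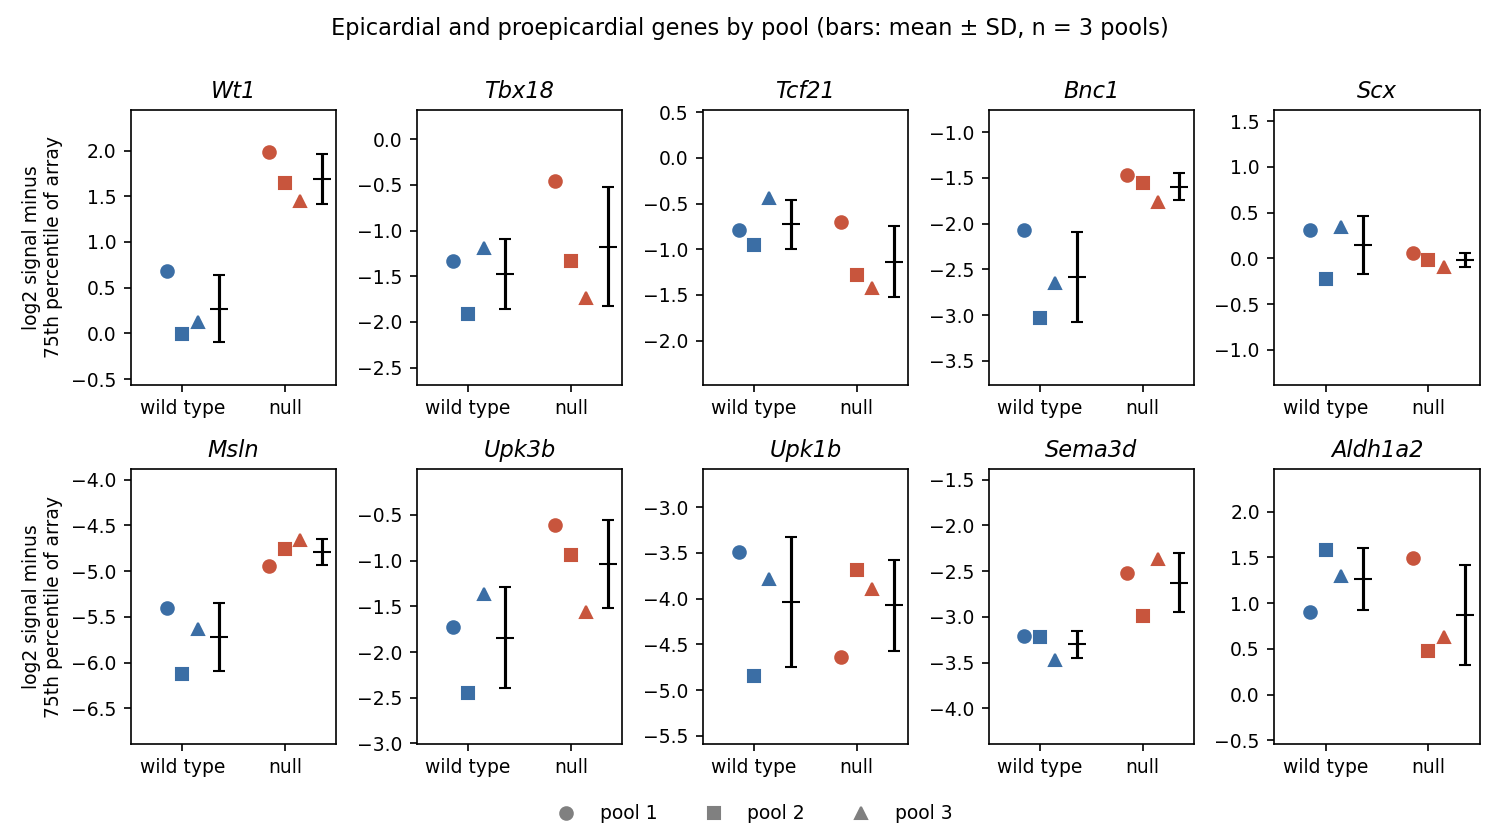
Level of each of the 10 genes in each pool (vertical axis, log2 signal minus the 75th percentile of the array), with symbols for the pool number and bars for the mean and SD of 3 pools per genotype. The null pools of Wt1, Msln, Bnc1 and Sema3d all sit above the wild-type pools, and the groups of the other 6 genes overlap.

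Wt1, a zinc-finger transcription factor needed for the epicardial sheet and for its later transition, showed the largest difference of the 10. Its level was 0.69, -0.0083 and 0.13 in wild-type pools 1 to 3 and 1.98, 1.64 and 1.45 in null pools 1 to 3. The groups did not overlap: the lowest null pool was above the highest wild-type pool. The means were 0.27 ± 0.37 and 1.69 ± 0.27 (SD, n = 3 pools each), so Wt1 rose by 1.42 on the log2 scale or 2.68-fold (SE 0.24, 95% interval 0.86 to 1.98, limma adjusted p = 0.0129). Only 2.2% of the genes tested had a higher change. The rise was seen on each slide, by 1.29, 1.65 and 1.32. Before any scaling between arrays the signal was 753 to 1249 in wild type and 1415 to 2806 in the null, also without overlap, although the call was lost when the test was run with no scaling (0.94, adjusted p = 0.0951). It was also lost without wild-type pool 2 (1.28, adjusted p = 0.0579) and without wild-type pool 3 (1.35, adjusted p = 0.0519).

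Bnc1 encodes basonuclin 1, a zinc-finger protein of mesothelium and of stratified epithelia. It read -2.07, -3.04 and -2.65 in the wild-type pools and -1.47, -1.56 and -1.76 in the null pools. The 3 null pools lay close together and above all the wild-type pools, among which pool 2 was the lowest. The difference was 0.99 or 1.99-fold (SE 0.26, 95% interval 0.39 to 1.59) and missed the threshold by little (limma adjusted p = 0.0521). Without wild-type pool 1 it was 1.25 and passed (adjusted p = 0.0222), and it also passed when probes had to clear background on all 6 arrays (adjusted p = 0.0386) and with another background correction, normexp (0.77, adjusted p = 0.0294). It did not pass in the other alternatives, such as the slide as a block (limma adjusted p = 0.102) and no scaling between arrays (0.51). Before scaling the signal was 92.3 to 182 in wild type and 153 to 257 in the null, ranges that overlap.

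Tbx18, a T-box repressor of the proepicardium and epicardium, read -1.33, -1.91 and -1.19 in the wild-type pools. The null pools read -0.46, -1.33 and -1.74, so null pool 1 was above every wild-type pool while null pool 3 was below all but wild-type pool 2. The difference was 0.30 (SE 0.35, 95% interval -0.51 to 1.12, limma adjusted p = 0.630), and its sign turned without null pool 1 (-0.056) and with no scaling between arrays (-0.18).

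Tcf21, a basic helix-loop-helix factor needed for the fibroblasts that come from the epicardium, read -0.79, -0.96 and -0.44 in the wild-type pools. In the null pools it read -0.70, -1.28 and -1.43, lowest in pools 2 and 3, with pool 1 inside the wild-type range. The difference was -0.41 (SE 0.24, 95% interval -0.97 to 0.16, limma adjusted p = 0.328). Scx, a basic helix-loop-helix factor of tendon precursors that also labels a subset of proepicardial cells, read 0.31, -0.22 and 0.35 in the wild-type pools and 0.061, -0.016 and -0.093 in the null pools. The null values all fell within the wild-type range, and the difference was -0.16 (SE 0.20, 95% interval -0.62 to 0.30, limma adjusted p = 0.651).

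Among the surface proteins of mesothelium, Msln, the glycolipid-anchored protein mesothelin, read -5.40, -6.13 and -5.63 in the wild-type pools and -4.95, -4.76 and -4.66 in the null pools. Every null pool was above every wild-type pool. Msln rose by 0.93 or 1.91-fold (SE 0.22, 95% interval 0.42 to 1.44, limma adjusted p = 0.0385). The probe was dim, with a signal of 10.8 to 23.0 in wild type and 20.5 to 23.1 in the null before scaling, ranges that overlap. The call was lost with slide as a block (adjusted p = 0.124), with no scaling (0.45, adjusted p = 0.309), with every dim probe kept among the genes tested (0.0944), and without any pool other than wild-type pool 1 (0.73 to 1.01, adjusted p 0.0558 to 0.119).

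Upk3b, a uroplakin made by mesothelial cells, read -1.72, -2.45 and -1.36 in the wild-type pools and -0.61, -0.94 and -1.56 in the null pools. Null pools 1 and 2 were above all wild-type pools and null pool 3 was not. The difference was 0.81 (SE 0.34, 95% interval 0.011 to 1.60, limma adjusted p = 0.180), and on slide 3 it was -0.20 against 1.11 and 1.51 on slides 1 and 2. Upk1b, a tetraspanin uroplakin, read -3.49, -4.84 and -3.79 in the wild-type pools and -4.64, -3.69 and -3.89 in the null pools. The groups covered nearly the same range, and the difference was -0.033 (SE 0.39, 95% interval -0.95 to 0.89, limma adjusted p = 0.970), of no stable sign (0.20 with normexp). Its 10 spots per array differed by an SD of 0.034 to 0.15. The SD between pools was 0.71 in wild type and 0.50 in the null.

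Sema3d, a secreted class 3 semaphorin that marks a subset of proepicardial cells, read -3.21, -3.22 and -3.47 in the wild-type pools and -2.52, -2.99 and -2.37 in the null pools. The groups did not overlap, with null pool 2 nearest to wild type. The difference was 0.67 or 1.60-fold (SE 0.20, 95% interval 0.20 to 1.15) and did not pass (limma adjusted p = 0.0812). With no scaling between arrays it was 0.19. Before scaling the signal was 78.5 to 103 in wild type and 78.6 to 124 in the null, ranges that overlap. Aldh1a2, the enzyme that makes retinoic acid in the venous pole and epicardium, read 0.91, 1.58 and 1.30 in the wild-type pools and 1.49, 0.48 and 0.63 in the null pools. Null pools 2 and 3 were below every wild-type pool, while null pool 1 was above all but wild-type pool 2. The difference was -0.40 (SE 0.31, 95% interval -1.11 to 0.32, limma adjusted p = 0.456), and it was 0.59 on slide 1 but -1.11 and -0.67 on slides 2 and 3.

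**Figure D2:**
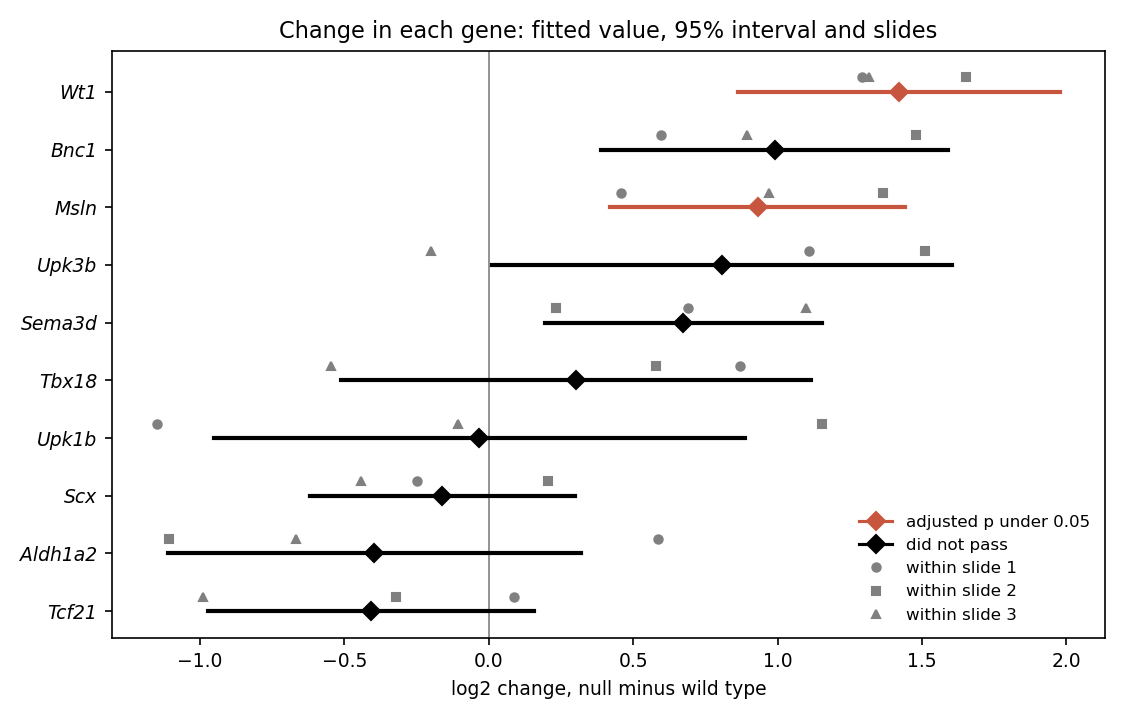
Log2 change of each gene, null minus wild type (horizontal axis), with the fitted value and its 95% interval as diamonds and bars and the difference within each slide as small symbols. The intervals of Wt1, Bnc1, Msln, Upk3b and Sema3d lie above 0, and only Wt1 and Msln passed after adjustment over all genes.

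Pools of the same genotype differed from each other by more for these genes than for genes at large: the median SD over the 10 members was 0.37 in wild type and 0.36 in the null, beside 0.25 and 0.23 over all genes. The members' order among the pools was often shared. Null pool 1 was the highest and null pool 3 the lowest of the null pools for 6 of the 10, namely Wt1, Tbx18, Tcf21, Upk3b, Bnc1 and Scx, beside 19.2% of all genes. Wild-type pool 2 was the lowest wild-type pool for these 6 and for Msln and Upk1b, 8 of 10 beside 31.9% of all genes. Both patterns held together for the 6 members, beside 6.2% of all genes. These orders were noticed after the values were seen, and what set pools apart within a genotype was not tested.

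**Figure D3:**
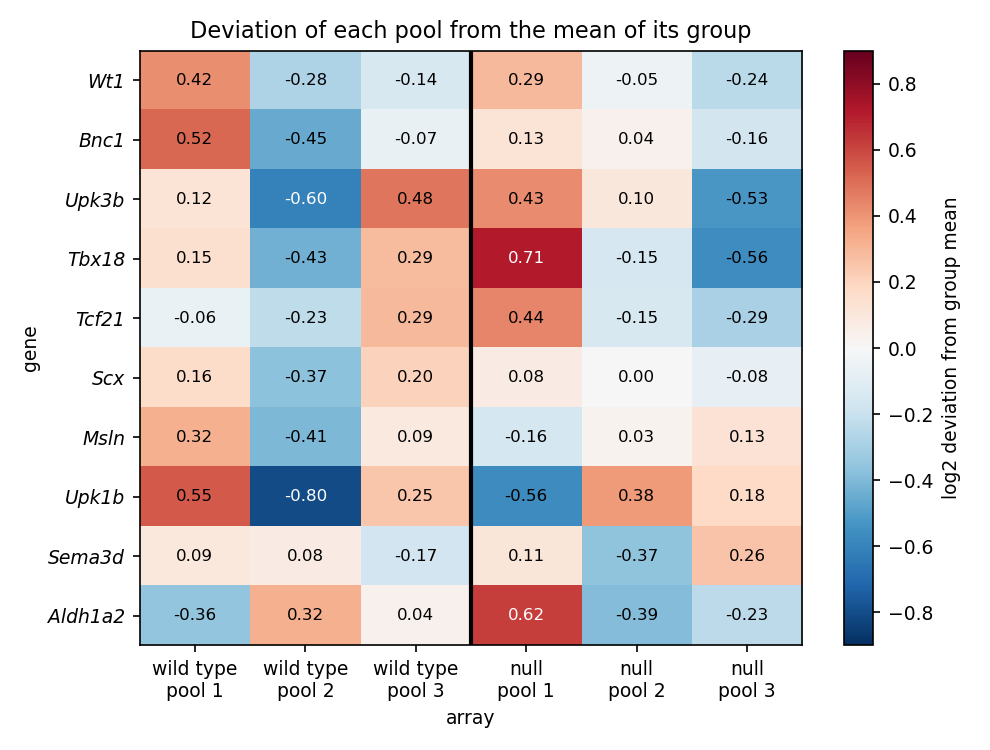
Deviation of each pool (columns) from the mean of its genotype (colour, log2) for each gene (rows). Wild-type pool 2 is below its group mean in 8 of 10 genes and null pool 1 above its group mean in 8 of 10, with Aldh1a2 high in both.

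Over the 6 pools the levels that followed each other most closely were those of Wt1 and Bnc1 (Pearson's r = 0.97), Msln and Bnc1 (0.94) and Wt1 and Msln (0.91), which are the members with the largest differences between genotypes. Once each genotype's mean was taken off, the closest pairs were Tbx18 and Tcf21 (0.95), Msln and Upk1b (0.94), Wt1 and Bnc1 (0.91) and Tbx18 and Upk3b (0.90). Tcf21 and Upk3b stood at 0.87, and Upk1b and Aldh1a2 ran opposite at -0.88. Across all 45 pairs of members the median of these within-genotype values was 0.34, and 14 were below 0. These values describe 6 arrays that share genotype and slide, and no test was made of them.

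The promoter windows of 3 members whose levels moved together within genotypes, Tbx18, Tcf21 and Upk3b, and that of Bnc1, which moved with Wt1, are printed from the RefSeq promoter table (mouse GRCm38.p6), 250 bases before to 50 after the start. Windows were found for 6 of the 10 members. They are Bnc1 at chr7:81992250-81992549 on the minus strand, Upk3b at chr5:136038246-136038545 on the plus strand, Tbx18 at chr9:87731211-87731510 on the minus strand and Tcf21 at chr10:22820094-22820393 on the minus strand. Each is written 5′ to 3′ along the gene's strand, and capitals mark matches on either strand to any of the 5 motifs searched.
Bnc1: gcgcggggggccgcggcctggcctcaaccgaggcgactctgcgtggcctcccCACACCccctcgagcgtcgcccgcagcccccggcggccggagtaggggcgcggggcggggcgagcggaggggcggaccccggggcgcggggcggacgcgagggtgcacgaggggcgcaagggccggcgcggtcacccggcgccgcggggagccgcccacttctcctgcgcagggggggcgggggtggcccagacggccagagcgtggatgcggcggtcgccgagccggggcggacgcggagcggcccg
Upk3b: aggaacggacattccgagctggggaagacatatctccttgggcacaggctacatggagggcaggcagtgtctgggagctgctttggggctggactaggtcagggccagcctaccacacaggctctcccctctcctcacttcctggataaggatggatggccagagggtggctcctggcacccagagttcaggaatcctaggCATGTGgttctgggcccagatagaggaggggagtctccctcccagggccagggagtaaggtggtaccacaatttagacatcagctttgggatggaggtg
Tbx18: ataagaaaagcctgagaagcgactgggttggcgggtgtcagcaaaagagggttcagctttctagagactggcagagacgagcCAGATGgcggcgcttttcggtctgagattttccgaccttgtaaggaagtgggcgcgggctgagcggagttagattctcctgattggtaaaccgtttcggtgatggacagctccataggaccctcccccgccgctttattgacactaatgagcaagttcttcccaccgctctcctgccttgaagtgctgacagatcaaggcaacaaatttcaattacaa
Tcf21: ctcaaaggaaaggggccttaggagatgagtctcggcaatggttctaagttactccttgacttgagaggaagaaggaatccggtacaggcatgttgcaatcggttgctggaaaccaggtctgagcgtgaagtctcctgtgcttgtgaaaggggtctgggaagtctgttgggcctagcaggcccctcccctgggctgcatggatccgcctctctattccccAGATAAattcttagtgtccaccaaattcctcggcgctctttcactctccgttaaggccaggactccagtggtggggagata

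The motifs were the E-box CANNTG, the T-box core GGTGTG, the GATA site AGATAA, the AT-rich core ATTAA and the GC box GCGGGGGCG of WT1 and EGR proteins. Bnc1's window, with 83.3% G and C beside a median of 52.7% for all 32851 windows, held 1 T-box core, on the strand opposite to the one printed, at -198 to -193 from the start. Upk3b's held 1 E-box at -49 to -44, Tbx18's 1 E-box at -168 to -163 and Tcf21's 1 GATA site at -31 to -26. An E-box was in 72.3% of all windows, a T-box core in 19.0% and a GATA site in 11.2%. The AT-rich core, in 27.1% of all windows, and the GC box, in 2.91%, had no match in the 6 members' windows, which says only that these letters are not there. No motif was shared by all of the 3 windows whose genes moved together. A match is a description of the letters and not a binding site.

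The counts in this and the later lists stand beside 6.64% of all genes called higher, 3.81% called lower and 26.9% with an unadjusted p under 0.05. No list was tested as a set. Of 12 other genes of the mesothelial sheet that were measured, Krt19 and Krt18 rose, Rspo1 fell and 9 did not pass. An unadjusted p under 0.05 was reached by 7, and the median change was 0.31. Among the 9, Efemp1 differed by 1.24 (limma adjusted p = 0.0561) and Nkain4 by -0.62 (adjusted p = 0.130). Both had no overlap and were named after their values were seen. Krt19, a keratin of simple epithelia and mesothelium, read 2.19, 2.65 and 2.53 in the wild-type pools and 5.55, 5.65 and 5.26 in the null pools. It rose 8.17-fold (change 3.03, SE 0.19, limma adjusted p = 0.000403) with no overlap. Krt18, the partner of Krt8 in the filaments of simple epithelia, rose by 1.09 (SE 0.16, adjusted p = 0.00865), a call lost with slide as a block (adjusted p = 0.0642) and with no scaling (0.61, adjusted p = 0.114). The other keratins of the list did not pass: Krt8 differed by 0.89 (adjusted p = 0.0752) and Krt7, added after its value was seen, by 0.21 (adjusted p = 0.640). Rspo1, a secreted activator of Wnt signalling, fell by 0.87 (SE 0.21, adjusted p = 0.0421), a call lost with the block (0.161) and without any pool other than wild-type pool 3 (0.0639 to 0.146). Simple-epithelial keratins are also made by pharyngeal endoderm, visceral endoderm and trophoblast.

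Of 12 regulators of the proepicardium and septum transversum 0 passed as higher and 1 fell, with 4 at an unadjusted p under 0.05 and a median of -0.082. Groups did not overlap for 2 of the 12 with the null higher and for 3 with the null lower, beside 18.1% and 14.9% of all genes. Hlx, a homeobox gene of the septum transversum named after its value was seen, was 0.75 higher with no overlap (limma adjusted p = 0.0901). The one that fell was Osr1, a zinc-finger factor of the second heart field and septum transversum, by 0.95 (SE 0.17, limma adjusted p = 0.0153). It read 0.40, 0.71 and 0.75 in the wild-type pools and -0.45, -0.31 and -0.24 in the null pools. Its call was lost with the slide block (adjusted p = 0.0804) and on leaving out wild-type pool 2, wild-type pool 3 or null pool 2 (0.0520 to 0.0696). Gata4, which the proepicardium needs to form, differed by -0.0087 (adjusted p = 0.991) with a sign that varied among scalings (0.059 with quantile normalization). Tbx5 differed by -0.49 with no overlap (limma adjusted p = 0.152) and the brightest probe of Tbx20 by -0.16 (adjusted p = 0.670). The probes of Tbx20 disagreed: the dimmer ones differed by -1.04 (adjusted p = 0.00973 over all probes, with no overlap) and by -0.41 (0.239).

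Of 12 measured genes of epicardial adhesion and signalling, 0 passed in limma, with 2 at an unadjusted p under 0.05 and a median of -0.0082. The smallest p-values were those of Fgf10, a fibroblast growth factor (0.59, adjusted p = 0.109), and Epor, the erythropoietin receptor (0.90, adjusted p = 0.112). Itga4 and Vcam1, the integrin subunit and its ligand that hold the epicardium to the myocardium, differed by -0.27 (adjusted p = 0.575) and -0.26 (adjusted p = 0.384), with another Vcam1 probe at 0.13. Epo, the ligand of Epor, was not among the 12 measured: it cleared background on 1 of 6 arrays. With no filter on dim probes it was called higher (2.55, limma adjusted p = 0.0165). Its wild-type values, -7.86, -8.68 and -8.20, lay below the lowest signal well above background on those arrays (-6.77, -6.81 and -7.46). The size of its change was therefore not measured. Among 15 genes of the epithelial-to-mesenchymal transition and of epicardium-derived cells, 0 passed, with 2 at an unadjusted p under 0.05 and a median of 0.20. The matrix protein gene Postn differed by 1.08 (adjusted p = 0.135), which passed without wild-type pool 1 (1.53, adjusted p = 0.0247), and Snai2, a repressor of E-cadherin, by 0.74 (adjusted p = 0.150).

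Aldh1a2 belongs to the retinoic acid pathway, and around it 5 of 16 measured genes rose and 0 fell. An unadjusted p under 0.05 was reached by 9, and the median was 0.27. Those that rose were Cyp26b1 (1.35, SE 0.21, limma adjusted p = 0.00995), Dhrs3 (1.14, SE 0.18, adjusted p = 0.0114), Cyp26a1 (1.51, SE 0.27, adjusted p = 0.0160), Cyp26c1 (2.05, SE 0.37, adjusted p = 0.0170) and Rarb (0.99, SE 0.18, adjusted p = 0.0173). The Cyp26 enzymes degrade retinoic acid, Dhrs3 reduces retinal back to retinol and Rarb is a receptor whose gene retinoic acid induces. Cyp26c1 cleared background on 1 of the 3 wild-type arrays, so the size of its change was not measured, and the other probe of Rarb differed by 0.59. Rdh10, which makes the retinal that Aldh1a2 uses, differed by -0.50 (adjusted p = 0.178). The 5 calls became 3 with the slide block, 3 without wild-type pool 2 (with Aldh1a1 called lower), 2 without null pool 2 and 0 with no scaling.

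Sema3d's family, the class 3 semaphorins and their receptors, had 2 of 13 that rose and 0 that fell. An unadjusted p under 0.05 was reached by 4, and the median was 0.26. Sema3b read -0.28, -0.31 and -0.42 in the wild-type pools and 0.72, 0.98 and 1.03 in the null pools, a rise of 1.25 (SE 0.16, limma adjusted p = 0.00493). Sema3e rose by 1.42 (SE 0.23, adjusted p = 0.0123), a call lost without wild-type pool 2, wild-type pool 3 or null pool 2. With no scaling neither passed (Sema3b 0.77, adjusted p = 0.0769; Sema3e 0.94, adjusted p = 0.0519). The receptor gene Nrp1 differed by -0.17 (adjusted p = 0.836), and its sign turned when pool 3 of wild type (0.18) or of the null (0.12) was left out.

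Of the other uroplakins 3 of 4 were measured and 0 passed in limma, with 2 at an unadjusted p under 0.05. Upk3bl differed by 0.69 (adjusted p = 0.0845). Upk3a cleared background on all 3 wild-type arrays and on 0 null arrays, so it passed the filter through the wild-type arrays alone. The size of its difference was therefore not measured, and it did not pass (limma adjusted p = 0.134). Null pool 3, at -5.51, lay within the wild-type range, and with normexp the sign turned. Of the closest paralogues 3 of 7 were measured and 0 passed, with 1 at an unadjusted p under 0.05: Tbx22 differed by 1.12 (adjusted p = 0.0975), Bnc2 by 0.54 (adjusted p = 0.246) and Tcf15 by 0.39 (adjusted p = 0.218). Tbx22 passed without wild-type pool 1 (1.48, adjusted p = 0.0344). Msc, the paralogue of Tcf21 in pharyngeal muscle precursors, was well above background on 2 arrays and was not tested. In the sinus venosus list, beside which the proepicardium arises, 0 of 6 passed, with 2 at an unadjusted p under 0.05 and a median of -0.45. Vsnl1 differed by -0.84 (adjusted p = 0.117, passing at 0.0286 without null pool 1).

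**Figure D4:**
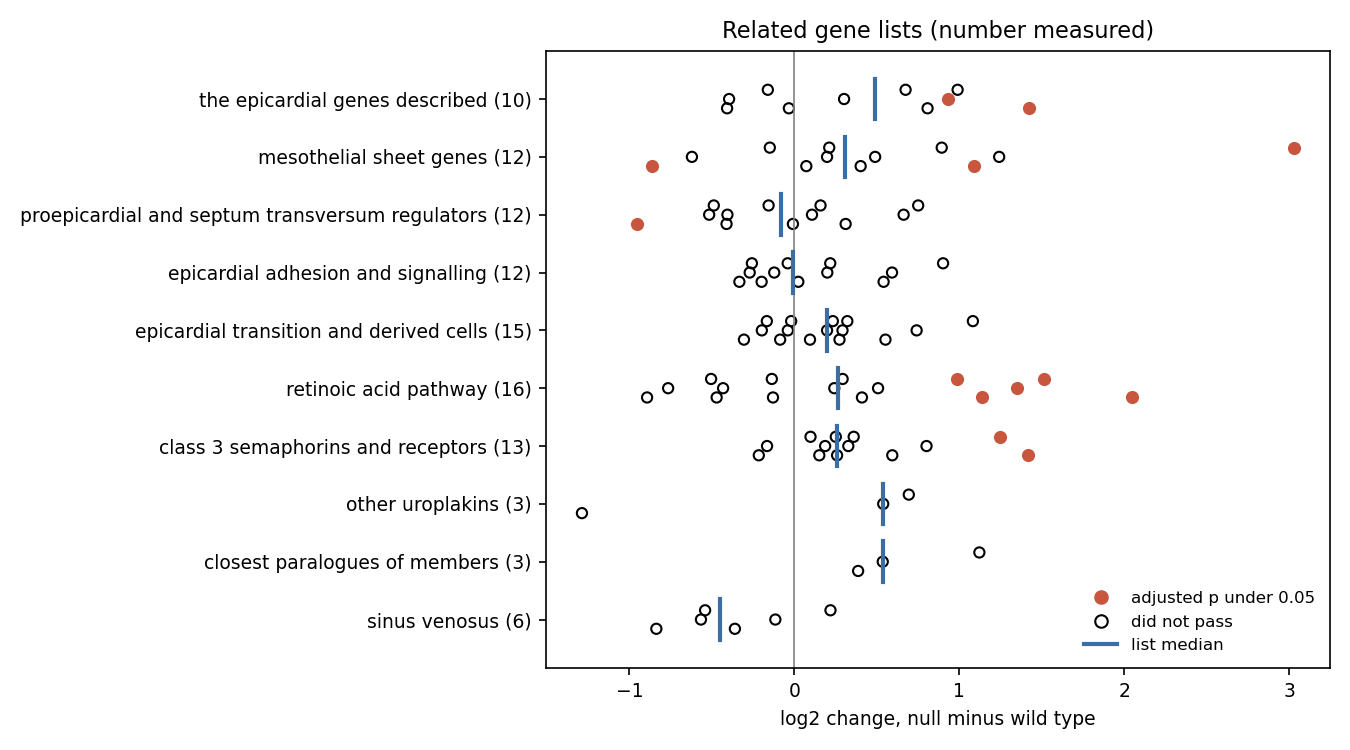
Log2 change, null minus wild type (horizontal axis), of every measured gene of the 10 epicardial genes and of each related list (rows, with the number measured), with filled points for adjusted p under 0.05 and a bar for the list's median. Krt19 stands farthest to the right at 3.03, and the retinoic acid list holds 5 genes that passed.

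Markers of the other cells that the dissection could hold were read beside these results, as the sum over a list of signal relative to each array's 75th percentile. Heart muscle was plain in every pool: the 10 cardiomyocyte markers summed to 1666 to 1997 in wild type and 1745 to 2225 in the null, and of them only Nppa, the atrial natriuretic peptide gene, rose (1.27, limma adjusted p = 0.00763), a call lost with no scaling (0.79, adjusted p = 0.107). Of 8 endothelial markers 0 passed (0 at an unadjusted p under 0.05), with Kdr at 0.38 and Cdh5 at 0.33, values that turned negative with no scaling. The other probe of Kdr differed by 0.61 with no overlap (limma adjusted p = 0.0907 over all probes). Of 7 pharyngeal endoderm markers 1 fell, Nkx2-1 by 0.79 (adjusted p = 0.0474), a call lost on leaving out any 1 of the 6 pools, with the block, with no filter and with normexp (-0.24). Shh, named after its values were seen, differed by -1.58 with no overlap (adjusted p = 0.0545) and was called lower in 5 alternatives, such as without null pool 1 (-2.05, adjusted p = 0.00954). The sums were 3.65 to 4.63 and 3.42 to 3.64.

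Hepatic and visceral endoderm markers were also higher in the null pools as a group. Of 4 measured, Hnf4a (2.27, limma adjusted p = 0.0027, clear of background on 2 of 3 wild-type arrays) and Afp (3.56, adjusted p = 0.0194, lost without wild-type pool 3) rose. Ttr (1.15, adjusted p = 0.0813) and Fgb (2.87, adjusted p = 0.101) did not pass, and their groups overlapped. The sum was 0.105 to 0.383 in wild type and 1.20 to 3.02 in the null, where most of it came from Afp. It was highest in null pool 1, as was Wt1, while Krt19 was highest in null pool 2 and Msln and Krt18 in null pool 3. Afp read -1.81, -4.55 and -2.88 in the wild-type pools and 1.24, -0.10 and 0.31 in the null pools, while Alb, Apoa1 and Apoa4 did not pass the filter on dim probes. Yolk sac erythroid markers summed to 240 to 503 and 657 to 971, with 0 of 6 passing (5 at an unadjusted p under 0.05). The globin gene Hbb-y differed by 0.98 (adjusted p = 0.0674). Neural crest markers summed to 3.03 to 4.01 and 4.41 to 5.49, with 1 of 6, Tfap2a, rising by 0.91 (limma adjusted p = 0.0206, other probe 0.55). The block, no filter or no scaling (0.43) ended that call, as did leaving out pool 1 or 3 of wild type or pool 2 or 3 of the null. Most of each sum came from Tfap2a and Ets1, so the sums say little about the other markers. The rest did not pass: Ets1 differed by 0.42, Erbb3 by 0.55, Sox10 by 0.44, Tfap2b by -0.51 and Foxd3 by -0.19. These 5 were named after their values were seen. The part of these cells in the rise of Wt1, Msln, Krt18 and Krt19 was not tested.

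The urogenital ridge, another site of Wt1, had 6 measured markers. Their sums overlapped, at 3.97 to 6.10 in wild type and 4.18 to 6.74 in the null. Most of each sum came from Six2, whose level averaged 1.94 in wild type and 1.82 in the null. The next brightest, Sall1, averaged -0.70 and -0.15, and both were named after their values were seen. The sums therefore say little about the other markers, and the part of urogenital ridge in the rise of Wt1 was not tested. Of the 6, Pax8 rose by 0.91 (limma adjusted p = 0.0423). That call was lost without any pool other than wild-type pool 3 and with median scaling, no filter, the block or the authors' table. It was also lost with no scaling (0.43). Of 4 measured trophoblast markers 0 passed (1 at an unadjusted p under 0.05), and the 3 with a value on every array summed to 0.402 to 0.560 in wild type and 0.346, 0.816 and 28.3 in null pools 1 to 3. Gcm1, whose brightest probe had an outlier spot in null pool 1 and was fitted on 5 arrays, differed by 1.89 (adjusted p = 0.0688), and passed with normexp, in the authors' table and without wild-type pool 2. Its next probe read 2.20, -0.13 and 2.54 in the wild-type pools and 3.19, 3.79 and 4.04 in the null pools. Of its 4 probes, another differed by 0.66 (limma adjusted p = 0.125 over all probes), and the last was well above background on 0 of 6 arrays. The probes of Gcm1 therefore disagreed, and which of them reads the gene was not tested. The giant cell gene Prl3d1 read -3.19, -2.99 and -3.30 in the wild-type pools and -3.20, -0.97 and 4.78 in the null pools, highest in null pool 3. In that pool 6 of the 10 epicardial genes had their lowest null value, while Msln (-4.66) and Sema3d (-2.37) had their highest. The part of trophoblast in the epicardial values was not tested. For the tissues that share Scx and Tbx18, 0 of 3 tendon markers passed (0 at an unadjusted p under 0.05; Thbs4 -0.53, Fmod -0.41, the latter 0.11 with normexp). Tnmd was not well above background on any array, and 1 of 7 somite markers, Tbx6, rose by 1.13 (adjusted p = 0.0140), a call that the block ended, as did leaving out pool 2 of either genotype, no scaling (0.64) and the mean of its probes (0.66), the other of which differed by 0.20.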

How the data were processed

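Total RNA of each pool was labelled with Cy3. Per the file headers, the intensity values were extracted with Agilent Feature Extraction 10.7.3.1 from arrays of design 026655, background-subtracted and not scaled between arrays. The authors' deposited table of log2 values for 24158 probes correlated with the scanner signal above 0.999 on each array, and how it was made is not stated; it served as an alternative. Control spots and outlier flags were left out, and log2 of the processed signal minus each array's 75th percentile was taken. Probes flagged as well above background on 3 or more of the 6 arrays were kept (26846 of 39429), the brightest probe stood for a gene (21798 genes, 15231 with a symbol through RefSeq accessions), and limma 3.58.1 in R 4.3.3 (lmFit, eBayes) tested null against wild type, two-sided, with Benjamini-Hochberg adjustment over all genes. The scripts were tested on simulated data. With 3 pools against 3 an exact permutation p is never below 0.1, so none is given.

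Named genes were the 10 members, up to 4 called genes of each list with the smallest p (the 2 with the smallest p where none was called), and a fixed set of related genes. Some genes that this rule names are not reported here. The members and lists were chosen with earlier results of these data known. Alternatives were quantile and median scaling, normexp (offset 50, on median spot signals), other filters on dim probes, the mean of a gene's probes, the slide as a replicate block, the authors' table and each pool left out; no scaling between arrays was added after the data were seen, as were the promoter windows and motifs.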

Additional observations from a re-analysis of the deposited data

How the results depend on the processing

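The count of genes called, 2278, was 1037 with no filter on dim probes and 832 to 1757 with 1 pool left out. The count of members called, 2, was 1 with no filter, 0 with no scaling between arrays and 0 to 3 with 1 pool left out. The count over the related lists, 11 of 92 genes, lay near the 10.5% called of all genes. It was 7 with no scaling and 5 to 13 with 1 pool left out. Wt1 was positive in all 15 alternatives run and called in 12: it was 0.94 with no scaling (adjusted p = 0.0951) and 1.28 to 1.63 with 1 pool left out. Msln was positive in all 15 and called in 7: it was 0.93 with no filter (adjusted p = 0.0944), 0.45 with no scaling (0.309) and 0.73 to 1.09 with 1 pool left out. Bnc1 was called in 3 of 15, at 0.77 with normexp, 0.99 with probes required to clear background on all 6 arrays, and within a range of 0.76 to 1.25 with 1 pool left out. Signs turned for Tbx18 (-0.18 with no scaling, -0.056 to 0.58 with 1 pool left out), Upk1b (0.20 with normexp, -0.43 to 0.25), Tcf15 (-0.094), Kdr (-0.10) and Cdh5 (-0.15) with no scaling, Upk3a (0.23) and Fmod (0.11) with normexp, Gata4 (0.059 with quantile normalization, 0.054 in the authors' table, -0.28 to 0.22) and Nrp1 (-0.50 to 0.18 with 1 pool left out); the cause was not tested. Median changes over all genes were 0.027 as reported, -0.11 with median scaling, 0.16 with normexp, 0.17 with no filter and -0.45 with no scaling, so values with no scaling read lower throughout.

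With the replicate block the counts were 742 genes, 1 member (Wt1, 1.42, adjusted p = 0.0254; Msln was 0.93 at 0.124) and 6 list genes. Pools of the same number did not deviate together (r = -0.41, -0.088 and -0.41 across genes), so the block was not taken as a pairing. The number of arrays, and signal near background for Msln, Upk1b and Upk3a, limit the precision.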
